A study of Mus musculus with 5 samples.

Results

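Genes of the mitotic spindle, the centromere and the kinesin motors were compared between 2 sorted progenitors of mouse bone marrow, on 5 Affymetrix arrays that cover the mouse genome. The tested population was the CDP, the common progenitor of dendritic cells, with 3 arrays. It was set against the CMP, the common progenitor of the myeloid lineages, with 2 arrays. All cells came from wild-type C57BL/6 animals. The title of CDP 3 opens with CM in place of BM, for which no reason is given, while its other labels name marrow and CDP. Cells of both groups lacked lineage markers, Sca-1 and the Fc receptors CD16 and CD32, and carried CD34 and Flk2. On CDP, c-Kit was intermediate and CD115 present. On CMP, c-Kit was high, and both CD115 and CD11c were missing. The cells were sorted a second time, RNA came from 10000 to 30000 cells, and it was amplified over 2 cycles before hybridisation. The age and sex of the mice are not given in the sources used here. Whether each array had its own animals is not stated. The p-values therefore reflect only how far these samples spread, and that spread may be technical. Members were chosen by symbol alone: every probe set with 1 annotated gene symbol that begins with Kif or Cenp, and those of a further list of mitotic genes such as Mki67, Ccnb2, Aurkb and Ndc80. This gave 196 of 45037 probe sets, for 89 genes. Of these, 116 probe sets for 69 genes reached log2 5 on at least 2 arrays and were tested, among 16552 probe sets for 8449 genes in all.

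When a cell divides, cyclin B and Cdk1 start mitosis, the kinetochore forms on the centromere and holds the microtubules, kinesin motors shape the spindle and move the chromosomes, and the anaphase-promoting complex then ends mitosis by marking cyclins for destruction. Transcripts of most of these genes are made late in the cell cycle, so in a population their level follows in part how many cells are between S phase and mitosis. Many other kinesins instead carry vesicles and organelles in cells that do not divide. Both progenitors are proliferating populations of the marrow. In arrays of whole populations, fewer cells of a type and less RNA per cell cannot be told apart.

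On each array, 34.0% to 35.8% of probe sets reached log2 5. The 3′ and 5′ control probe sets of beta-actin were 8.05 apart on CDP 1 and 7.35 apart on CMP 1 on the log2 scale, and 1.81 to 4.48 apart on the other 3 arrays, and CDP 1 and CMP 1 are called the arrays low in 5′ signal. All 7 neutrophil markers with a probe set reached log2 5 on CDP 2, where their summed level above log2 5 was 37.5, and that sum was 0 on each of the other 4 arrays. Mast cell and basophil markers separated the groups: their summed level above log2 5 was 0.761 to 1.23 on the CDP arrays, with 1 or 2 of 4 reaching log2 5, against 11.6 and 8.33 on the CMP arrays, with 3 of 4. Among these, Hdc averaged 4.84 in CDP and 9.61 in CMP, Cpa3 was at the lowest value of the table on all CDP arrays and at 8.76 and 6.25 in CMP, and Fcer1a was at that lowest value on all 5 arrays. Megakaryocyte markers summed to 0 to 0.456 in CDP, against 2.10 and 1.69 in CMP, with Gp1bb, Gp9 and Ppbp below log2 5 throughout. Dendritic markers summed to 25.5 to 26.8 in CDP, against 18.9 and 19.0 in CMP, with Cd74, Siglech and Xcr1 below log2 5 throughout. That sum came from Irf8 and from the genes of sorting antigens, Csf1r, Flt3 and Itgax. B cell markers summed to 2.12 to 3.13 in CDP, against 0.963 and 1.96 in CMP. Cd79b alone made up the B cell sum, with Cd79a and Ebf1 below log2 5 throughout. Of 4 erythroid markers 1 reached log2 5, on CMP 1, and of 3 T and NK cell markers 0 did on any array. The part of these cell types in the differences given here was not tested. Of the sorting genes, Kit and Itgax went with the labels. Kit was lower in CDP by 5.96-fold (limma, adjusted p = 0.0318), and Itgax, which encodes CD11c, was at least 4.67-fold higher (adjusted p = 0.0155). Csf1r, which encodes CD115, had a difference of 1.63 that did not pass (adjusted p = 0.0966), and was at 11.75 and 11.03 on the CMP arrays. Cd34 and Flt3 differed by -1.33 (adjusted p = 0.327) and 0.92 (adjusted p = 0.221). The median difference, CDP minus CMP, over all tested probe sets was 0.12 (log2).

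Of the 69 tested genes, 53 were listed under a role in mitosis, and the other 16 are transport kinesins and other genes that share the prefixes. The 16, such as Kif2a, Kif24 and Cenpj, were not shown to lack a part in mitosis. The lists were chosen with earlier results of these data known, so the contrast between them is a description. The mitotic genes had higher values in CDP almost throughout, but only 1 of them, Kif23, passed the test across all probe sets. Their median difference was 1.03 (log2), against 0.17 over all 8449 tested genes and 0.14 over the 16 transport and other kinesins. Of the 53, 47 had a difference above 0 and 6 below it, where 60.6% of all tested genes lay above 0. Every CDP array lay above every CMP array for 37 of the 53 (69.8%), which held for 23.7% of all tested genes, and the opposite order held for 0 of the 53, against 10.8% of all. With limma, 1 gene rose and 0 fell at an adjusted p under 0.05, where 1.67% of all tested genes rose and 0.473% fell. Over the 116 tested probe sets of all 69 genes, 1 rose and 0 fell, where 1.31% of all tested probe sets rose and 0.423% fell. At an unadjusted p under 0.05, 30 of the 53 mitotic genes were higher and 0 lower, against 12.6% and 4.52% of all tested genes. The share of single genes called was thus near the background, whereas the share with separated groups was above it, and no test was made over the genes as a set. Of the 53 genes, 0 passed the filter on low values through 1 group alone. Of the 116 tested member probe sets 4 did, of Kif23, Spc25 and Kif1b, and their differences are tied to that filter.

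**Figure D1:**
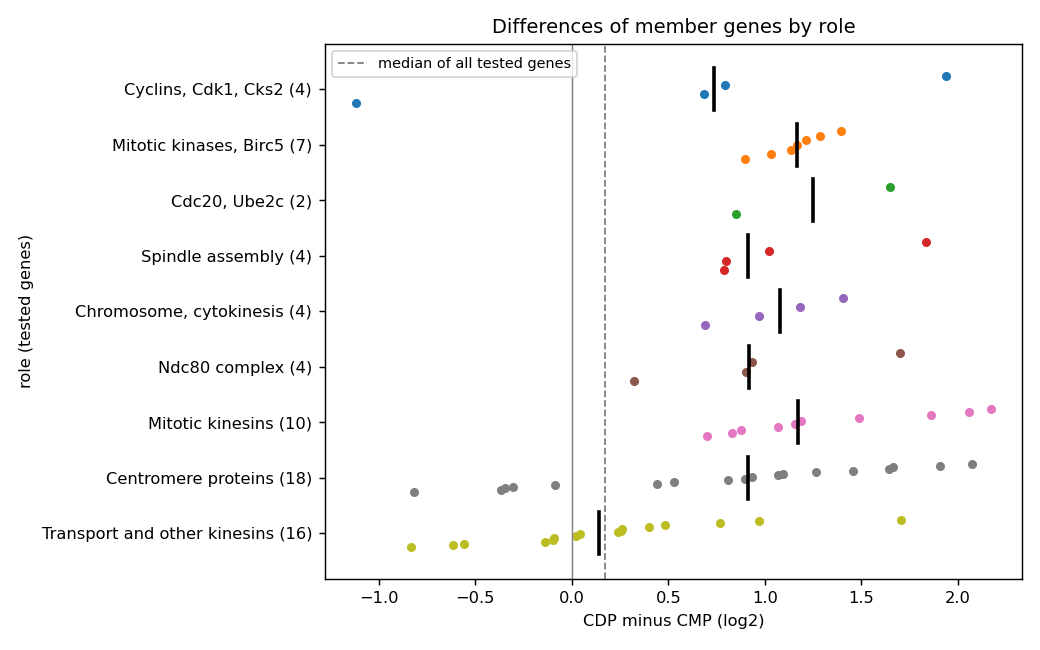
CDP minus CMP (log2) for each of the 69 tested genes, 1 point per gene, by role down the page with the number of tested genes in brackets; the black bar is the median of a role and the dashed line the median of all tested genes, 0.17. All 10 mitotic kinesins lie to the right of 0, while the 16 transport and other kinesins lie around the dashed line.

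The mitotic kinesins held the gene with the largest difference of the 69. Kif23 (also known as MKLP1), the motor of the centralspindlin complex that bundles microtubules at the midzone and is needed for cytokinesis, was at 11.77, 11.96 and 11.69 on the CDP arrays, against 9.42 and 9.85 on the CMP arrays. The groups did not overlap, and the arrays of each group lay close together. Kif23 rose 4.50-fold in CDP, by 2.17 ± 0.32 (log2, SE; limma, adjusted p = 0.0407). Its other tested probe sets differed by 3.21 ± 0.65 (adjusted p = 0.0817) and by 2.03 ± 0.76 (adjusted p = 0.273), so the call rests on the brightest of 3. The former passed the filter through CDP alone, with both CMP arrays below log2 5. Without any 1 array the difference of Kif23 stayed between 1.95 and 2.39, but the call was lost each time (adjusted p from 0.0841 to 0.225), as were nearly all calls of the whole table, of which at most 33 genes were left.

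Racgap1, the partner of Kif23 in centralspindlin, does not carry a member's symbol but stood in a list of other mitotic genes. It was at 11.54, 11.32 and 11.42 in CDP, against 9.12 and 9.47 in CMP. Racgap1 rose 4.39-fold in CDP, by 2.13 ± 0.31 (adjusted p = 0.0391). Of the 86 tested genes of that list, Racgap1 alone rose, 0 fell and 85 did not pass, a share of calls no higher than the 1.67% of all tested genes that rose. At an unadjusted p under 0.05, 32 of the 86 were higher and 0 lower, against 12.6% and 4.52% of all tested genes, and the median difference was 0.76. The call of Racgap1 too was lost without any 1 array.

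Of the 10 tested mitotic kinesins, Kif23 was called and 9 did not pass, with a median difference of 1.17. Kif4, which acts on chromosome arms and the midzone, was at 8.69, 9.04 and 9.26 in CDP, against 7.08 and 7.19 in CMP, a difference of 1.86 ± 0.33 (adjusted p = 0.0583). Kif18a, which limits chromosome oscillation at the spindle equator, differed by 1.49 ± 0.37 (adjusted p = 0.132), and Kif2c, which takes microtubule ends apart, by 1.19 ± 0.32 (adjusted p = 0.155). Smaller differences were found for Kif11, the motor that pushes the spindle poles apart (0.70 ± 0.35), Kif22 (0.88 ± 0.32), Kif20b (0.83 ± 0.37), Kif18b (1.07 ± 0.36) and the cytokinesis motor Kif20a (1.15 ± 0.50). Other tested probe sets had overlapping groups for Kif11 (0.30 ± 0.47), Kif20b (0.73 ± 0.66), Kif22 (1.38 ± 0.61) and Kif2c (1.33 ± 0.96). Further ones of Kif11 (1.32 ± 0.33) and Kif22 (1.53 ± 0.52) had separated groups. At the brightest probe set, every CDP array lay above every CMP array for 23.7% of all tested genes and for 9 of the 10 mitotic kinesins. The exception was Kifc1, a minus-end motor that clusters spindle poles, at 3.77, 8.46 and 7.47 in CDP, against 3.37 and 5.66 in CMP. Its values split the arrays by 5′ signal, since the arrays low in 5′ signal were the lowest ones. CDP 1 minus CMP 1 was 0.40, with both below log2 5, and the mean of CDP 2 and CDP 3, minus CMP 2, was 2.31. Kif14, Kif15 and Kifc5b were below log2 5 on all arrays and were not tested.

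**Figure D2:**
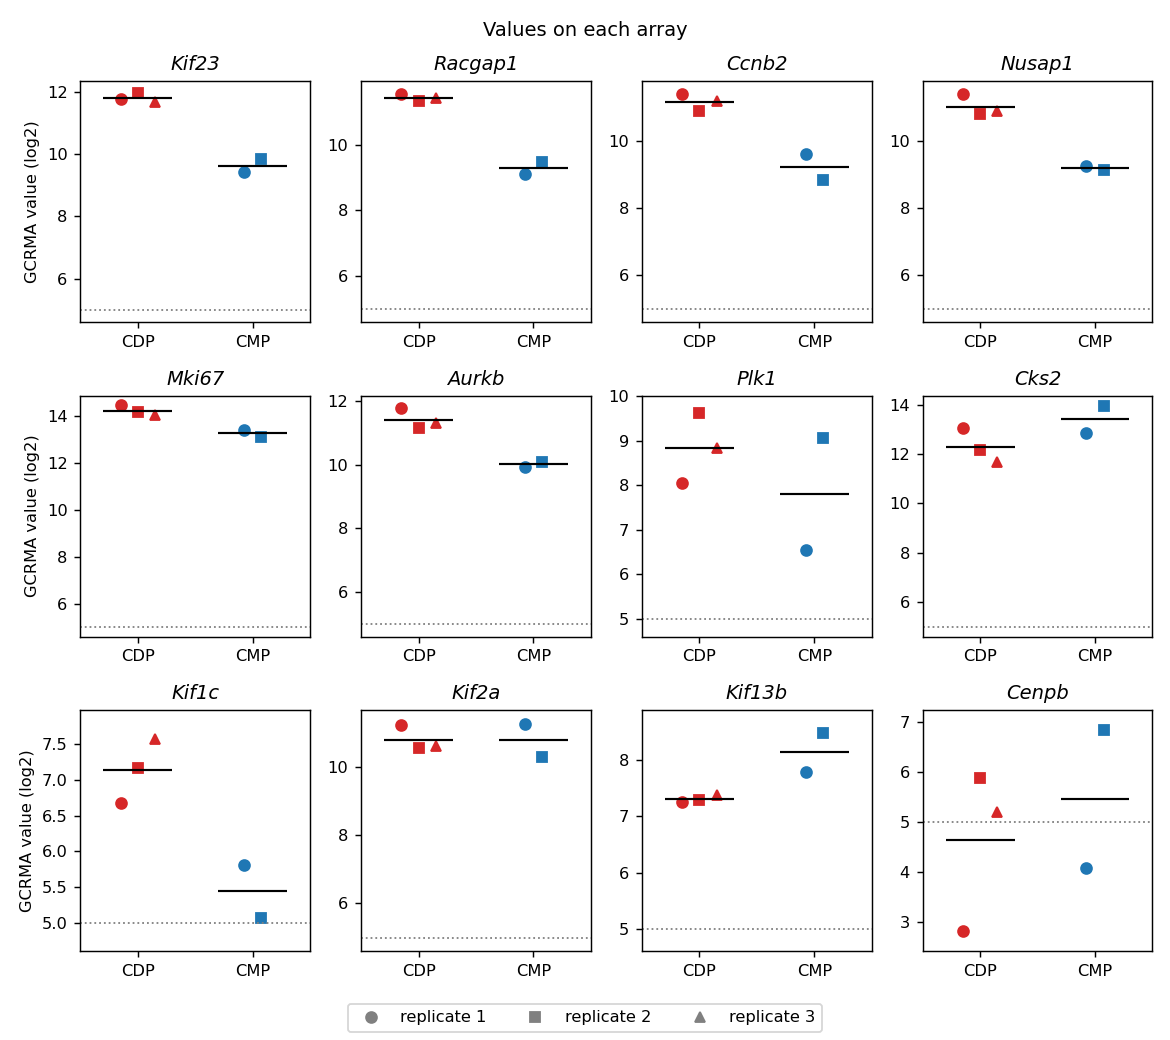
GCRMA values (log2) on each array for 12 genes, with CDP left of CMP, 1 symbol per replicate number, a black line at each group mean and a dotted line at log2 5; the vertical axes differ between genes. Kif23, Racgap1, Ccnb2, Nusap1, Mki67, Aurkb and Kif1c show separated groups with CDP above, while Plk1, Kif2a and Cenpb overlap.

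None of the 4 tested regulators that start mitosis passed. In 3 of the 4 all CDP arrays lay above both CMP arrays, against 23.7% of all tested genes. Ccnb2, a cyclin B that activates Cdk1, was at 11.40, 10.90 and 11.19 in CDP, against 9.61 and 8.84 in CMP. This made a difference of 1.94 ± 0.38 (adjusted p = 0.0750), with a 95% interval from 1.02 to 2.86. Ccna2, the cyclin of S phase and early mitosis, averaged 11.18 ± 0.22 in CDP and 10.38 ± 0.14 in CMP (SD, n = 3 and 2; difference 0.79 ± 0.32 SE, adjusted p = 0.302). Cdk1, the kinase itself, averaged 10.50 ± 0.08 in CDP and 9.82 ± 0.55 in CMP (0.68 ± 0.36, adjusted p = 0.427). Cks2, a small subunit that binds Cdk1, had the most negative difference of the 69 genes, -1.12 ± 0.54 (adjusted p = 0.389). Its values were 13.03, 12.16 and 11.69 in CDP, against 12.86 and 13.96 in CMP, with overlap, and its other probe set differed by -0.32 ± 0.38. Ccnb1 had no probe set with 1 symbol and was not analysed here.

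All 7 genes of mitotic kinases, the passenger complex and the spindle checkpoint had positive differences, from 0.89 to 1.40, and none passed. Of all tested genes, 60.6% lay above 0. Aurkb, the kinase of the chromosomal passenger complex, was at 11.76, 11.14 and 11.32 in CDP, against 9.94 and 10.09 in CMP, a difference of 1.40 ± 0.34 (adjusted p = 0.124). Birc5 (survivin), its partner in that complex, differed by 1.21 ± 0.38 (adjusted p = 0.208). The checkpoint kinases Bub1 (0.89 ± 0.29, adjusted p = 0.219), Bub1b (1.14 ± 0.33, adjusted p = 0.175) and Ttk (1.16 ± 0.38, adjusted p = 0.217) also had CDP above CMP on all arrays. Aurka and Plk1, which act at the centrosome and spindle poles, did not. Plk1 was at 8.06, 9.62 and 8.83 in CDP, against 6.54 and 9.07 in CMP, and its difference of 1.03 ± 0.83 (adjusted p = 0.620) became -0.24 without CMP 1 and 2.30 without CMP 2. Aurka was at 8.70, 9.74 and 9.31 in CDP, against 6.97 and 8.96 in CMP. Its difference of 1.28 ± 0.65 (adjusted p = 0.413) was 0.29 without CMP 1 and 2.28 without CMP 2. Other tested probe sets of Bub1, Bub1b and Ttk differed by 0.26 ± 0.41, 0.93 ± 0.46 and 0.38 ± 0.30, with overlap for Bub1 and Bub1b. That of Aurkb differed by 1.42 ± 0.35, with separated groups.

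Cdc20 and Ube2c, an activator and the ubiquitin-conjugating enzyme of the anaphase-promoting complex, both had separated groups. Ube2c was at 7.81, 9.56 and 8.83 in CDP, against 6.67 and 7.50 in CMP (1.65 ± 0.58, adjusted p = 0.250). Cdc20 averaged 13.04 ± 0.38 in CDP and 12.19 ± 0.11 in CMP (0.85 ± 0.36 SE, adjusted p = 0.322). In spindle assembly, the microtubule-bundling protein Nusap1 was at 11.39, 10.79 and 10.90 in CDP, against 9.26 and 9.13 in CMP, a difference of 1.83 ± 0.34 (adjusted p = 0.0641). Tpx2, which activates Aurka, Tacc3 and Hmmr differed by 1.02 ± 0.51, 0.79 ± 0.55 and 0.80 ± 0.39. The other tested probe set of Tpx2 differed by 0.20 ± 0.43, with overlap. Those of Cdc20, Tacc3 and Hmmr differed by 0.71 to 1.94. None of these 6 genes passed.

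Mki67, which coats mitotic chromosomes and is the gene of the proliferation antigen Ki-67, was at 14.46, 14.16 and 14.05 in CDP, against 13.41 and 13.10 in CMP. It had separated groups and a difference of 0.97 ± 0.32 (1.96-fold, adjusted p = 0.223), with a 95% interval from 0.19 to 1.75. Top2a, the topoisomerase that untangles sister chromatids, averaged 13.04 ± 0.39 in CDP and 11.86 ± 0.30 in CMP (1.18 ± 0.37 SE, adjusted p = 0.206). Its other tested probe set differed by 0.41 ± 0.38, with overlapping groups. Anln, a scaffold of the contractile ring, was at 10.76, 10.52 and 10.77 in CDP, against 9.63 and 8.93 in CMP (1.40 ± 0.35, adjusted p = 0.133). Ect2, which activates RhoA for cytokinesis and is recruited by centralspindlin, differed by 0.69 ± 0.29 (adjusted p = 0.328).

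At the kinetochore, Ndc80, which gives its name to the complex that grips microtubules, was at 9.27, 8.82 and 9.37 in CDP, against 7.84 and 7.07 in CMP, a difference of 1.70 ± 0.39 (adjusted p = 0.106). Among the other subunits, Spc24 differed by 0.93 ± 0.38, and Spc25 by 0.90 ± 0.56 and Nuf2 by 0.32 ± 0.49 with overlapping groups. A second, dimmer probe set of Spc25 differed by 1.83 ± 0.40 (adjusted p = 0.100). It passed the filter through CDP alone, with both CMP arrays below log2 5, so its separated groups are tied to the filter. Without CMP 1 the difference of Spc25 at its brighter probe set was 0.32 and that of Nuf2 -0.19. Of 18 tested centromere genes, with a median of 0.91, none passed. Against 60.6% of all tested genes above 0, 13 of the 18 had a positive and 5 a negative difference. Cenpl, of the inner kinetochore, had the largest one, at 8.66, 9.48 and 9.55 in CDP, against 6.59 and 7.72 in CMP (2.07 ± 0.49, adjusted p = 0.116). Cenpt, which links centromeric DNA to the Ndc80 complex, differed by 1.91 ± 0.45 (adjusted p = 0.116), the kinetochore motor Cenpe by 1.66 ± 0.36 (adjusted p = 0.0968) and Cenpn, which binds Cenpa nucleosomes, by 1.64 ± 0.39 (adjusted p = 0.120). Cenpa, the histone H3 variant that marks centromeres, averaged 11.48 ± 0.49 in CDP and 10.21 ± 0.85 in CMP (1.26 ± 0.50 SE, adjusted p = 0.296). Other tested probe sets differed by 0.58 ± 0.80 for Cenpe, with overlap, 1.49 ± 0.34 for Cenpn and 1.59 ± 0.52 for Cenpa.

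The 5 centromere genes with a negative difference were Cenpb, Cenph, Cenpo, Cenpw and Cenpx, from -0.82 to -0.09, all with overlapping groups. Cenpb, which binds satellite DNA, was at 2.82, 5.89 and 5.21 in CDP, against 4.08 and 6.83 in CMP (-0.82 ± 1.14, adjusted p = 0.798), lowest on the arrays low in 5′ signal. The sign of Cenpb turned without CDP 1 (0.09) or without CMP 2 (0.56). The probe sets of Cenpu disagreed in sign, at 0.93 ± 0.59 and -0.52 ± 0.51. Cenpm and Cenpv failed the filter, and Cenpm reached log2 5 on CDP 2 alone (5.64).

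**Figure D3:**
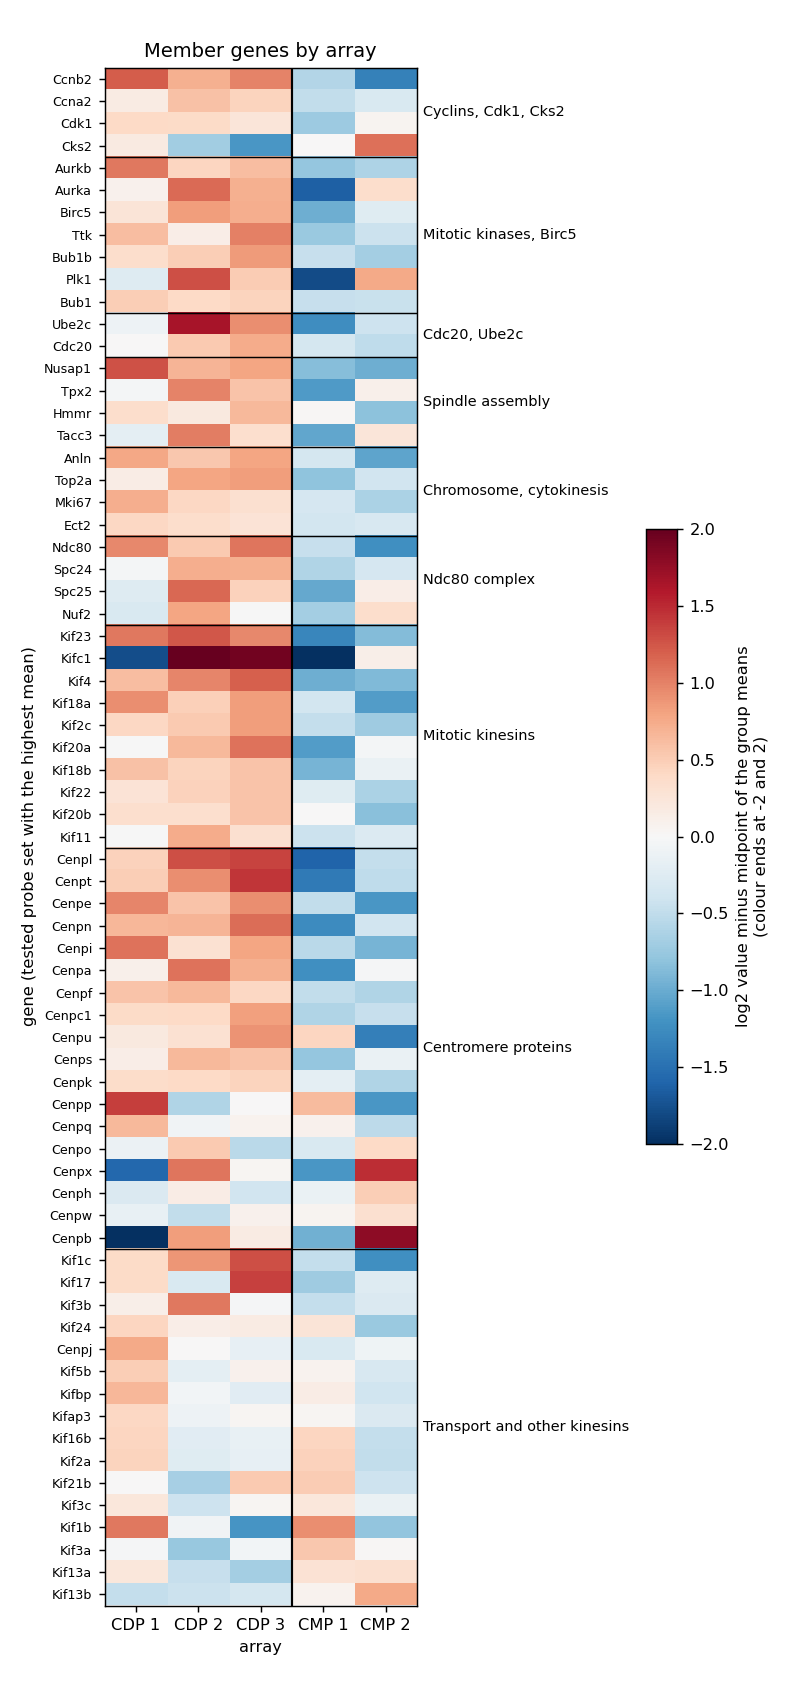
Each tested gene (rows, ordered by role and by difference) on each array (columns, CDP left of CMP), as the log2 value minus the midpoint of its 2 group means; red is above and blue below, and colours end at -2 and 2. Red in the 3 CDP columns against blue in the 2 CMP columns runs through most mitotic rows, and the lowest block of transport and other kinesins lacks it.

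The 16 transport and other kinesins gave another picture, with 10 differences above 0, 6 below it and none called, where 60.6% of all tested genes lay above 0. At an unadjusted p under 0.05, 1 was higher and 0 lower, against 12.6% and 4.52% of all tested genes. All CDP arrays lay above both CMP arrays for 2 of the 16 (12.5%), against 23.7% of all tested genes. They lay below both for 3, against 10.8% of all. Kif2a, a microtubule depolymerase also used in neurons, was at 11.23, 10.54 and 10.61 in CDP, against 11.25 and 10.30 in CMP. Its difference was 0.02 ± 0.43 (adjusted p = 0.990), with a 95% interval from -1.03 to 1.07 that does not leave out a change of the size seen in the mitotic genes. Kif5b, the heavy chain of conventional kinesin, differed by 0.26 ± 0.36 (95% interval -0.61 to 1.13), and Kifap3, the adaptor of the kinesin-2 motor, by 0.24 ± 0.34. Kif1c, a vesicle motor, was at 6.67, 7.17 and 7.58 in CDP, against 5.81 and 5.07 in CMP, the largest difference of these 16 (1.70 ± 0.42, adjusted p = 0.130). Kif13b, another vesicle motor, was at 7.25, 7.30 and 7.38 in CDP, against 7.80 and 8.49 in CMP (-0.84 ± 0.34, adjusted p = 0.315). Its relative Kif13a (-0.62 ± 0.38) and the kinesin-2 motor Kif3a (-0.56 ± 0.39) also had every CDP array below every CMP array. Kif1b was ambiguous, since its 5 tested probe sets differed by -0.14, 0.01, 1.75 and, passing the filter through CDP alone, by 1.57 and 1.71. Signs disagreed between probe sets for 5 of 8 such genes with several, against 1 of 24 mitotic genes. Another 15 genes of this kind failed the filter, among them the neuronal motors Kif1a, Kif5a and Kif5c, and only Kifc2 of the 15 reached log2 5 on any array.

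Since 5′ signal separated CDP 1 and CMP 1 from the rest, the comparison was repeated within each kind of array. Between the arrays low in 5′ signal, CDP 1 minus CMP 1, the median over the 53 mitotic genes was 0.95 with 48 above 0. Among the others, CDP 2 and CDP 3 minus CMP 2, it was 1.03 with 47 above 0, and 46 genes were positive in both. Of all 8449 tested genes, 5170 and 4756 were above 0, and 3614 in both. The medians for all tested genes were 0.17 and 0.13, and those for the 16 transport and other kinesins 0.14 and 0.26. For Kif23 the differences were 2.35 and 1.97, and for Ccnb2 1.79 and 2.21. Plk1 (1.52 and 0.15) and Aurka (1.72 and 0.56) differed mostly between the arrays low in 5′ signal. With the kind of array as a block in limma, 15 of the 53 mitotic genes were called higher and 0 lower, each at its brightest probe set. Of the 16 others 0 were called, where 7.10% of all tested genes were higher. At dimmer probe sets, however, Kif1b of the 16 passed with the block, by 1.81 (adjusted p = 0.0133) and 1.76 (adjusted p = 0.0152). The latter probe set passed the filter through CDP alone. The 15 mitotic genes were Kif23, Kif4, Kif18a, Ccnb2, Aurkb, Birc5, Ube2c, Nusap1, Anln, Ndc80, Cenpe, Cenpi, Cenpl, Cenpn and Cenpt, with block-adjusted p from 0.0102 for Kif23 to 0.0492 for Birc5. With the block, 16 genes of the other mitotic list were also called, led by Cdkn3, a phosphatase of Cdk proteins (2.47, adjusted p = 0.00577), Racgap1 (2.12, adjusted p = 0.0105) and Cdca3 (1.83, adjusted p = 0.0182), and including Foxm1, a transcription factor of mitotic genes (1.73, adjusted p = 0.0207). With the replicate number as a block instead, 4 of the 69 genes were called higher, where 3.01% of all tested genes were, and the labels do not say that numbers pair the arrays. Genes named here from that list beside Racgap1 were chosen after their values were seen. Without CDP 2, the array with neutrophil transcripts, the mitotic median was 1.02, and without CDP 3, the array with the other title, it was 0.95.

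**Figure D4:**
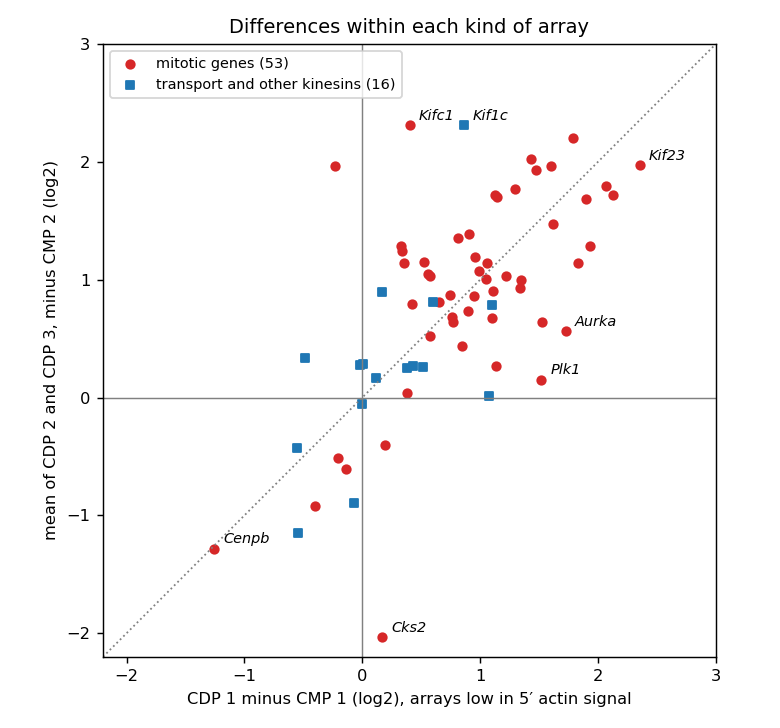
Difference (log2) between the arrays low in 5′ signal (CDP 1 minus CMP 1, horizontal) and among the others (mean of CDP 2 and CDP 3, minus CMP 2, vertical), 1 point per gene, with circles for 53 mitotic genes, squares for 16 transport and other kinesins and a dotted line of equal differences. Of the circles, 46 lie above 0 on both axes, where 3614 of all 8449 tested genes were positive in both. Cks2 is near 0 on one axis and at -2.03 on the other.

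The medians of the mitotic genes separated the groups on every array. Relative to the midpoint of each gene's group means, the median over the 53 was 0.35 on CDP 1, 0.57 on CDP 2 and 0.65 on CDP 3, against -0.60 on CMP 1 and -0.43 on CMP 2. The transport and other kinesins were at 0.40, -0.21 and -0.04 on the CDP arrays, against 0.19 and -0.31 on the CMP arrays, so they were highest on the arrays low in 5′ signal in both groups. The CMP arrays differed from each other, since 34 of the 53 mitotic genes (64.2%) were lower on CMP 1 than on CMP 2 and 13 (24.5%) by over 1, where 53.6% and 20.4% of all tested genes were. Leaving out 1 array turned the sign of 6 of the 53 (Cenpb, Cenpo, Cenpp, Cenpx, Nuf2 and Plk1) and of 7 of the 16 others.

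Promoters of mitotic genes are known to share the cell cycle genes homology region, a short element read by MuvB complexes such as DREAM, and CCAAT boxes read by NF-Y. RefSeq promoter windows (GRCm38.p6, from 250 bases before to 50 after the gene's start) were found for 48 of the 53 mitotic genes and 13 of the 16 others, and were searched on both strands for the letters CCAAT and for 2 forms of the homology region's core, TTTGAA and also TTTAAA. No match of 1 of these holds another. TTTGAA occurred in 28 of 48 mitotic genes (58.3%), against 14.5% of 6977 tested genes with a window and 0 of the 13 transport and other kinesins. TTTGAA or TTTAAA occurred in 66.7% of the mitotic genes, against 22.3% of all tested genes. CCAAT occurred in 70.8% of the mitotic genes, 46.2% of the transport and other kinesins and 43.4% of all tested genes, and CCAAT together with either core in 54.2% of mitotic and 8.96% of all tested genes. Over every promoter window of the table, 17.9% held TTTGAA and 37.4% CCAAT. A match is a description of these letters and not a shown binding site, and genes with and without a match were both among those with large differences, such as Kif23 with one and Nusap1 without.

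The windows below show TTTGAA in capitals, with 12 bases on each side, for 8 named genes of different roles at the match nearest the start. Positions count from the start, with 1 its first base and -1 the base before it, and give the first base of the match. Kif23 holds it at 3 (chr9:61946780-61946809, minus strand), Ccnb2 at 5 (chr9:70421533-70421562, minus), Cenpa at 17 (chr5:30666890-30666919, plus), Plk1 at 31 (chr7:122159453-122159482, plus), Aurka at 33 (chr2:172370521-172370550, minus), Cdk1 at -15 (chr10:69352910-69352939, minus), Cdc20 at -18 (chr4:118437344-118437373, minus) and Mki67, farther off, at -98 (chr7:135716460-135716489, minus). Some other named genes hold their nearest match on the opposite strand or at a like distance. These are Anln at 22, Spc25 at 25, Ndc80 at 30, Top2a at -23 and Ube2c at -29. That of Cenpl lies farther off, at -162. Bub1b holds its match at 41, too near the window's edge for 12 bases on each side. Bub1, Cenpb, Cks2, Kif1c, Kif2a and Nusap1 had a window without TTTGAA. Aurkb, Ccna2 and Kif13b had no window.
Kif23: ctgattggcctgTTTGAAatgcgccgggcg
Ccnb2: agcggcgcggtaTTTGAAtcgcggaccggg
Cenpa: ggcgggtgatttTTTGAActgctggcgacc
Plk1: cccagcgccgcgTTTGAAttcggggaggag
Aurka: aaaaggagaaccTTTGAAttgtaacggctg
Cdk1: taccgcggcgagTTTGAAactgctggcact
Cdc20: agacagttgggtTTTGAAggagccaatgaa
Mki67: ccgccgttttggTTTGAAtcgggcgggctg

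The 100 bases before the start of Ccnb2 (chr9:70421555-70421654, minus strand) hold 3 CCAAT boxes, in capitals, at -87, -54 and -21. They are set beside those of Kif1c (chr11:70700448-70700547, plus strand), which hold neither a CCAAT box nor a core, although both genes had every CDP array above every CMP array.
Ccnb2: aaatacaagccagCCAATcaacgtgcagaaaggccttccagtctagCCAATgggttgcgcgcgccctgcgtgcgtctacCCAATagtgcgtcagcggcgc
Kif1c: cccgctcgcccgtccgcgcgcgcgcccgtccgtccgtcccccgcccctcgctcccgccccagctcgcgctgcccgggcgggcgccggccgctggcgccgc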

How the data were processed

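The deposited table holds log2 values that the authors made with GCRMA, per the submitters' processing notes, a method that takes background from probe sequence, quantile-normalizes arrays and gives 1 value per probe set. Its version is not given in the sources used here. The log2 values as deposited ran from 2.26 to 16.59 and were not normalized again. Precision is limited by the number of arrays, 3 of CDP and 2 of CMP, which were grouped and numbered by their titles (that of CDP 3 opens with CM, those of the others with BM). Probe sets were named by the platform annotation, 34945 with 1 symbol, 932 with several and 9160 with none, and 0 symbols changed against the RefSeq table of GRCm38.p6.

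Probe sets with at least 2 of 5 arrays at log2 5, also the detection level, were tested. For CDP against CMP, lmFit and eBayes were run (limma 3.58.1 under R 4.3.3; 2-sided), with Benjamini-Hochberg adjustment over all 16552 probe sets and a threshold of 0.05. Adjusted p-values without another tool are from this fit, differences are CDP minus CMP with their fitted SE, and groups are given as mean ± SD. A gene was read at its brightest tested probe set. Where an array of the dimmer group was below log2 5, values below 5 were set to 5 and the fold is a lower bound.

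Named genes were those called, the brightest and the most positive and most negative of each role, 12 cell cycle genes taken whatever their values, and called genes of the list of other mitotic genes. Further genes are named to describe roles. The members and lists were chosen with earlier results of these data known. Other scalings, filters, variance models, blocks and left-out arrays were tried, and the procedure was tested on simulated data.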

Additional observations from a re-analysis of the deposited data

How the results depend on the processing

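Directions held better than calls. Of 25 named genes, 22 kept their sign under all 18 alternatives. Kif2a, near 0, turned to -0.031 with quantile normalization, -0.11 with median centring and -0.14 with array weights. Without 1 array, Kif2a ran from -0.46 to 0.50, Cenpb from -2.19 to 0.56 and Plk1 from -0.24 to 2.30. The mitotic median stayed between 0.90 and 1.15 throughout, and that of the transport and other kinesins turned to -0.000115 with no filter and -0.026 with array weights, and ran from -0.26 to 0.47 without 1 array.

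Calls moved with filters, blocks and left-out arrays, and little with a trended or robust variance. All tested probe sets called higher and lower (217 and 70) came to 29 and 26 with no filter, 432 and 176 with the replicate block, 1024 and 414 with the 5′ actin block, and to 0 and 0 when CDP 1 and CMP 1 were both left out, and 45 were lower with the filter at log2 7. Without 1 array they ran from 0 to 42 and from 0 to 2. Member probe sets called higher (1) became 9 with the replicate block and 26 with the 5′ actin block. The 26 included probe sets of Kif23, Spc25 and Kif1b that passed the filter through CDP alone, so these calls are tied to that filter. Member genes called higher (1) became 4 with the replicate block and 15 with the 5′ actin block. With the mean of probe sets they became 3 (4.35%), near the 3.47% of all tested genes called in either direction. In that setting Ccnb2, Kif4 and Nusap1 were called and Kif23 was not (limma, adjusted p = 0.0518). With no filter the 1 gene called was Bub1, not Kif23 (adjusted p = 0.124). Other mitotic genes called higher (1 of 86) became 2 with array weights, 2 with the replicate block, 16 with the 5′ actin block and 3 with the mean of probe sets. Of all tested genes, 1.98%, 4.17%, 9.76% and 3.47% were called in these settings, in either direction. Without 1 array, members and other mitotic genes called came to 0 in limma, with 16 to 31 member genes (23.2% to 45.6%) higher at an unadjusted p under 0.05, against 7.12% to 14.1% of all tested genes. When CDP 1 and CMP 1 were left out there were 36 (52.2%), against 18.9% of all tested genes. Where an arm had 1 array, it was assumed to vary like the other group. The cause of the other changes was not tested.

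Medians moved by more than the spread between arrays in these cases. Over all members (0.90) the median was 0.77 with median centring, 0.77 with no filter and 1.00 with array weights (0.80 to 1.04 without 1 array). For centromere genes (0.91) it was 0.77 with quantile normalization, 0.79 with median centring, 1.08 with the filter at log2 7, 1.02 with array weights, 0.81 with the replicate block and 1.00 without probe sets that may match several transcripts (0.81 to 1.06 without 1 array). For chromosome and cytokinesis genes (1.08) it was 0.95 with median centring, 0.97 without such probe sets and 0.88 with the mean of probe sets (0.94 to 1.11). Without such probe sets Hmmr and Nuf2 were not tested, and Tacc3 was read at a probe set with a difference of 1.94. Spc25 was then read at 1.83, at the probe set that passed the filter through CDP alone. In that setting the median was 1.83 for spindle assembly (0.81 to 1.53 without 1 array) and 1.70 for the Ndc80 complex. For cyclins and Cdk1 it was 0.54 without both arrays low in 5′ signal (0.49 to 0.98), and for kinases 0.89 to 1.47 without 1 array. For other mitotic genes (0.76) it was 0.66 with quantile normalization, 0.63 with median centring, 0.62 without such probe sets and 0.63 with the mean of probe sets (0.66 to 0.85).

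The groups share replicate numbers 1 and 2, which the labels do not tie to an animal or a day. Deviations from the group means correlated at 0.61 between CDP 1 and CMP 1 and at 0.58 between CDP 2 and CMP 2. With 2 CMP arrays, the deviation of CMP 2 is that of CMP 1 with its sign turned, so these values are not separate. CDP 1 and CMP 1 are also the arrays low in 5′ signal, so pairing by number and 5′ signal cannot be told apart here. With the replicate block, Ccnb2, Cenpl, Kif23 and Nusap1 were called, where 3.01% of all tested genes were higher.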
